A study of Mus musculus with 2 samples.

Results

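Among the 4236 cells of the series, 89 were deeply counted CD8 T cells with high levels of checkpoint receptors, and 32 of them held transcripts of the red fluorescent protein dsRed while 57 held none. A CD8 T cell was a cell with at least 3 UMIs of the CD3 genes Cd3d, Cd3e and Cd3g, at least 2 UMIs of Cd8a and Cd8b1 and less than 1000 CPM of the 3 C1q genes that mark macrophages. A UMI is 1 counted mRNA molecule, and CPM are UMIs per 1000000 gene UMIs of a cell or of a set of cells. Checkpoint-high cells held at least 500 CPM of Pdcd1, Havcr2, Lag3 and Tnfrsf9 together and at least 5000 gene UMIs. The members were thus chosen by measured values, and the sets were divided by dsredexpress1, with 1 or more UMIs against 0, so dsRed and the genes of these limits are given as a description of the choice and not as results.

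The cells came from B78ChOVA, a mouse melanoma line whose cells were injected under the skin of the flank in 50 µl with Matrigel and grown for 16 days. Tumours were cut alive into slices of about 160 µm, cells were marked with spatial barcodes by light (ZipSeq), and sorted immune cells were read with 10x Genomics droplets as 2 libraries of the same cells, one of gene expression and one of spatial barcodes. Both sets of CD8 T cells therefore share day, sort and library. The labels name neither the cells or mice that carried dsRed nor the number of tumours, and the regions behind the spatial barcodes ZC1, ZC2 and ZC3 are not given.

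Fluorescent protein transcripts are commonly used to follow cells transferred from a reporter mouse or cells with an active reporter gene. CD8 T cells kill target cells with perforin and granzymes and secrete chemokines and interferon gamma. Under lasting antigen in a tumour they take on an exhausted state, in which inhibitory receptors such as PD-1, TIM-3 and LAG-3 and the factor TOX are raised, and less differentiated exhausted cells with TCF1 renew more differentiated ones.

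In outline, dsRed-positive cells held more Xcl1, Cd160, Cd81 and Nrgn and more transcripts of mitosis genes than dsRed-negative cells of the same gate. They held less Gzmb, Prf1, Ccl5, Ly6c2, Klrc1, Cxcr6, Id2 and Trac, and less of most interferon-stimulated genes. Each of these differences rests on 1 library, so no test was possible: ratios are dsRed-positive over dsRed-negative, and the 95% intervals in parentheses cover counting error only, not differences between tumours or mice. Cells of 1 library are not replicates. Where a ratio is called past 2-fold, this refers to its size alone.

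Of 223 CD8 T cells, 185 had 5000 or more gene UMIs, and of these 89 were checkpoint-high and 96 checkpoint-low. The lowest checkpoint level inside the limit was 507 CPM and the highest outside it 490.2 CPM, with 12 cells within 100 CPM inside the limit and 8 outside. The shallowest checkpoint-high cell had 5301 gene UMIs, and the deepest one left out had 4953. Below the depth limit lay 6 more checkpoint-high cells, none with a dsRed UMI.

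The dsRed-positive cells were deeper. They held 5992 to 51967 gene UMIs with a median of 17430 and 691226 in all, against 5301 to 73634 with a median of 10934 and 866301 in all in dsRed-negative cells. The ranges overlap over nearly their whole length. Median mitochondrial shares were 3.70% and 3.37%. Since a deeper cell has more chance of a UMI of any gene, shares of cells with a UMI are, for the leading genes, also given after every cell was thinned to 5000 UMIs.

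dsRed counts of positive cells ran from 1 to 27 UMIs with a median of 5 and a sum of 218 UMIs. Only 3 of the 32 cells held a single UMI and 6 held 2. In CPM the cells ran from 70.7 to 694 with a median of 269.6, and the summed level was 315 CPM. A cell of 5000 UMIs at that level would be expected to hold 1.58 UMIs, and 20.7% of such cells would hold none by counting alone. At the median depth of dsRed-negative cells 3.45 UMIs would be expected, and in 21 of the 57 fewer than 3, so some cells called negative can carry dsRed at this depth.

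**Figure D1:**
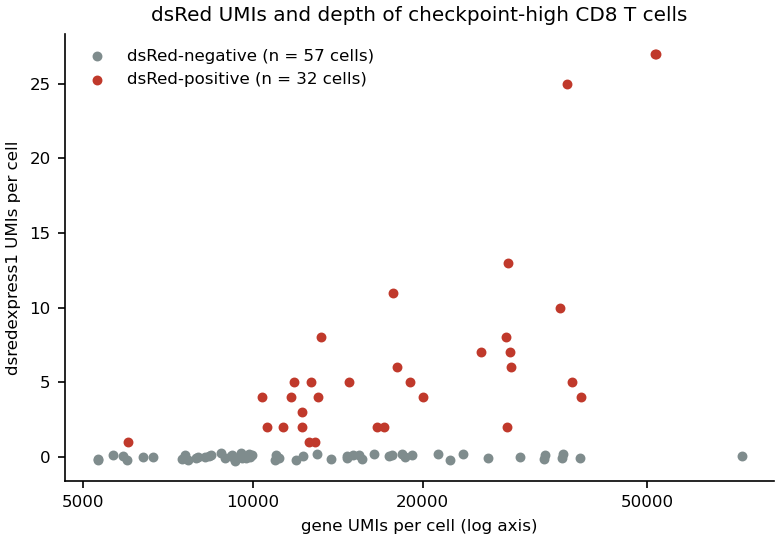
dsredexpress1 UMIs per cell (vertical axis) against gene UMIs per cell (horizontal log axis) for the 32 dsRed-positive and 57 dsRed-negative checkpoint-high CD8 T cells; points of negative cells, all at 0, are spread around 0 for sight. Positive cells reach 27 UMIs, and cells with 0 UMIs occur from 5301 to 73634 gene UMIs.

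The dsRed share of checkpoint-high cells was 36.0% (26.1–46.8, Clopper-Pearson), and 23 of the 89 (25.8%, 17.1–36.2) still held a dsRed UMI after thinning to 5000 UMIs. In checkpoint-low CD8 T cells it was 7 of 96 (7.29%, 2.98–14.4), and 5.21% after thinning. Their median depth was 6896 UMIs, against 12972 in the checkpoint-high cells. No dsRed UMI was found in 55 cells with CD3 and Foxp3, which allows a share of cells with a UMI of up to 5.45% (3 counts of the total), in 44 other Cd4 T cells, which allows 6.82%, or in 31 NK cells, which allows 9.68%.

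dsRed in other cells and in free RNA is given as background. CD8 T cells left out by the C1q limit held a dsRed UMI in 13 of 126 cells (10.3%), or 4.76% after thinning. They had 70 dsRed UMIs, a level of 12.8 CPM, at a median depth of 38608 UMIs. Macrophages, taken as a cell type of a different lineage, held a UMI in 6 of 2352 cells (0.255%) at a median depth of 28637 UMIs, a level of 0.0821 CPM. Melanoma cells held 7 UMIs in 40 cells of 88161.5 median UMIs, a level of 1.91 CPM, and none after thinning. Barcodes of 10 to 100 UMIs, which hold RNA from the medium, stood at 4.97 CPM. mVenus, another fluorescent protein among the counted features, had 0 UMIs in the 89 cells and 15 in all 4236.

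Both sets carried the genes their label asks for. Cd8a ran from 338 to 2226 CPM with a median of 794 in dsRed-positive cells and from 0 to 2546 with a median of 979.8 in dsRed-negative cells, and Trac and the CD3 genes were found in all 89. The Cd4 gene had 0 UMIs in positive cells and 6 UMIs in 2 negative cells. Of 4 NK markers Ncr1 and Klrb1c were at 0 in both sets, as were the erythroid markers. The NK list still summed to 125 UMIs in 20 positive cells and 186 UMIs in 34 negative cells. Tyrobp, also found in macrophages at 2048 CPM, gave 82 and 139 of these. The 3 gamma delta T cell markers had 29 UMIs in 7 positive and 22 UMIs in 11 negative cells. The checkpoint genes themselves, used by the gate, were lower in dsRed-positive cells: Lag3 at 421 against 664 CPM, Pdcd1 at 120.1 against 193 CPM, Havcr2 at 78.1 against 127 CPM and Tnfrsf9 at 511 against 604 CPM. Their summed level per cell had a median of 1069 against 1394 CPM, with wide overlap.

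Of 2222 genes with at least 100 UMIs over both sets, 27 (1.22%) were past 2-fold higher in dsRed-positive cells and 35 (1.58%) past 2-fold lower. Past 1.5-fold lay 137 (6.17%) higher and 122 (5.49%) lower. All of these 62 ratios had counting intervals on 1 side of 1. In 6 of the higher and 5 of the lower genes a single cell gave more than 1 in 3 of the UMIs of its set. The median log2 ratio of all compared genes was 0.06. The ratio with the greatest size, Ifitm1 (169), rested on 2 positive cells and 1 negative cell, with nearly all of the positive UMIs from 1 cell, and was singled out after its values were seen.

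**Figure D2:**
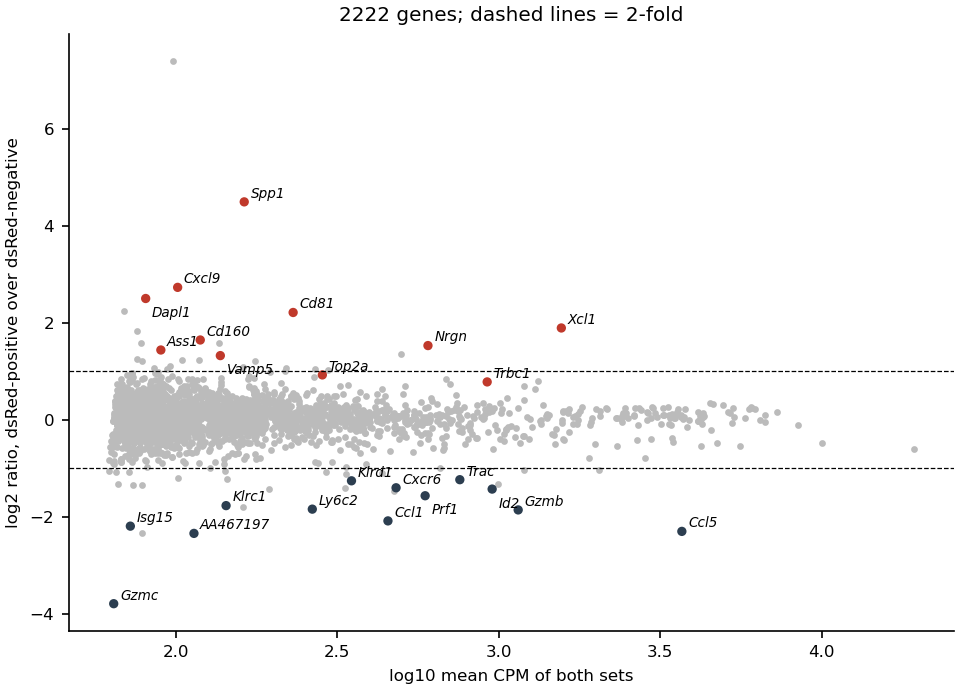
log2 ratio of dsRed-positive over dsRed-negative cells (vertical axis) against log10 of the mean CPM of both sets (horizontal axis) for the 2222 compared genes, each a point; dashed lines mark 2-fold. Xcl1, Nrgn and Cd81 stand above the upper line and Ccl5, Gzmb, Ly6c2 and Prf1 below the lower line. Top2a lies just under the upper line and Trbc1 further below it, at a log2 ratio of 0.78.

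Among secreted factors, Xcl1 encodes the chemokine that attracts cross-presenting dendritic cells through the receptor XCR1. It is a gene of chromosome 1 (chr1:164931644-164935527, minus strand, GRCm38). Per cell it ran from 0 to 13294 CPM with a median of 1474 in dsRed-positive cells and from 0 to 10878 CPM with a median of 0 in dsRed-negative cells. Of the positive cells 25 of 32 held a UMI, against 14 of 57, and 75% against 17.5% after thinning. The ranges overlap, but most negative cells lay at 0. The summed level was 2465 against 663 CPM, ratio 3.72 (3.38–4.10), and 3.61 without the top cell of each set, which gave 40.3% and 34.8% of the Xcl1 UMIs.

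Ccl5, the chemokine RANTES of effector and memory T cells, stood the other way. It ran from 0 to 12511 CPM with a median of 672 in positive cells and from 13.6 to 44230.5 CPM with a median of 5970.1 in negative cells. All 57 negative cells held it, against 27 of 32. The summed level was 1247 against 6136 CPM, ratio 0.203 (0.189–0.218), with 625 CPM in free RNA. Ccl4 followed at 1399 against 2408 CPM, ratio 0.581 (0.538–0.627), while Ccl3, from the same cytokine family, stood at 2326 against 2279.8 CPM, ratio 1.02 (0.955–1.09).

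Ifng, the interferon gamma gene, was found in 29 of 32 and 43 of 57 cells with medians of 416 and 268 CPM per cell. Its ratio of 1.29 (1.13–1.47) was 0.891 without the top cells, since 1 positive cell gave 41.9% of its UMIs. Ccl1 shows how few cells can carry a sum: its ratio was 0.236, but 1 negative cell gave 61.7% of the UMIs, and more positive than negative cells held it, 10 against 7. Spp1 and Cxcl9, both genes of myeloid cells, were past 2-fold higher at ratios of 22.6 and 6.65 with 80.6% and 86.9% of their UMIs from 1 cell. Without the top cell of each set Spp1 was at 5.87 and Cxcl9 at 1.04. A further setting divided the sets by the dsRed UMIs left after thinning, 23 against 66 cells, and took ratios from all UMIs. Cells whose dsRed UMIs were lost by thinning thus stood among the negative ones. There the log2 ratios of Spp1 and Cxcl9 turned to -1.01 and -2.21. Of the 25 listed secreted factors 10 were compared, with a median ratio of 0.988, 2 past 2-fold higher (Xcl1 and Spp1) and 2 lower (Ccl5 and Ccl1), beside 1.22% and 1.58% of all compared genes.

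Among cytotoxic genes, Gzmb, the granzyme B protease that enters target cells and starts their death, lies on chromosome 14 (chr14:56258838-56262260, minus strand). In dsRed-positive cells it ran from 0 to 3339 CPM with a median of 0, and in dsRed-negative cells from 0 to 12848 CPM with a median of 581. It was found in 12 of 32 against 50 of 57 cells, and in 34.4% against 86.0% after thinning. The summed level was 498 against 1802 CPM, ratio 0.276 (0.245–0.311).

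Prf1, the pore-forming perforin, ran from 0 to 1793 CPM with a median of 44.5 in positive cells and from 0 to 7382 CPM with a median of 205 in negative cells. It was found in 19 of 32 and 47 of 57 cells, or 34.4% and 66.7% after thinning, and the ratio was 0.338 (0.289–0.395). Nkg7, a granule membrane gene, was in every cell of both sets at 2086 against 3589 CPM, ratio 0.581 (0.546–0.619). Ctla2a, a cathepsin inhibitor gene, had a ratio of 0.472 (0.397–0.557). Gzmc was at 0.0723, but in 3 and 8 cells only, with 66.7% and 50% of its UMIs from 1 cell each.

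Among the 18 cytotoxic genes 9 were compared. The median ratio was 0.581 and 4 were past 2-fold lower (Gzmb, Prf1, Gzmc and Ctla2a) with none higher, beside shares of 1.58% and 1.22% of all compared genes. Gzmk, a granzyme of less differentiated and memory cells, was the 1 compared member above 1, at 1.34 (0.962–1.86), an interval that holds 1. A single cell gave 45.6% of its positive UMIs, and without the top cells the ratio was 0.873. It was found in 34.4% of positive against 52.6% of negative cells, or 15.6% against 35.1% after thinning. Of the 9 compared, 8 lay below 1, beside 944 of all 2222 compared genes. Counting every member with a UMI, 13 of 15 had a lower level in positive cells. No share over all genes with a UMI was computed for that count. Ctsw, a lymphocyte cathepsin, stood at 0.978 (0.811–1.18).

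The start regions of Xcl1 and Gzmb are shown because these genes stood on opposite sides of the comparison and together sorted many of the cells. Each sequence is the 250 bases before the RefSeq start on the gene's own strand (GRCm38.p6), chr1:164935523-164935772 and chr14:56262335-56262584, both minus, and capitals mark matches to the searched motifs on either strand.
Xcl1: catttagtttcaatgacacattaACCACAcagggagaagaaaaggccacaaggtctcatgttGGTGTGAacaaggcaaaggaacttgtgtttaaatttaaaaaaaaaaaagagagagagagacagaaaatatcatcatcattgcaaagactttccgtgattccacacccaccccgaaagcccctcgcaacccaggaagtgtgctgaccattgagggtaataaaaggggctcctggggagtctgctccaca
Gzmb: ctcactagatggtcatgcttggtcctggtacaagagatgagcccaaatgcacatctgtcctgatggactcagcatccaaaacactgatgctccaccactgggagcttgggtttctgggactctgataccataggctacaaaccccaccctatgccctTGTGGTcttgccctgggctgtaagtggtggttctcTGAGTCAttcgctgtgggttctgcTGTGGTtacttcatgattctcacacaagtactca
The motifs searched were AP-1 as TGANTCA, RUNX as TGTGGT, T-box as GGTGTGA and NFAT as GGAAAA. Xcl1 held 1 RUNX match from -227 to -222, on the opposite strand, and 1 T-box match from -188 to -182 relative to the start. Gzmb held 2 RUNX matches, from -93 to -88 and from -34 to -29, and 1 AP-1 match from -58 to -52. No matches overlapped. Over 27025 promoters of the same table, windows of this length held AP-1 in 6.87%, RUNX in 14.2%, T-box in 3.31% and NFAT in 20.6%. A match describes letters only, and binding was not measured here.

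Xcl1 and Gzmb were also read together in each cell, a pairing chosen after their values were seen. Xcl1 without Gzmb was found in 18 of 32 dsRed-positive and 4 of 57 dsRed-negative cells (56.3%, 37.7–73.6, against 7.02%, 1.95–17.0). Gzmb without Xcl1 was found in 5 of 32 and 40 of 57 (15.6%, 5.28–32.8, against 70.2%, 56.6–81.6). Both genes together occurred in 7 and 10 cells, so the cells of either set were mixed and neither gene alone divided them. Gzmb with Prf1 was found in 10 of 32 and 43 of 57 cells.

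**Figure D3:**
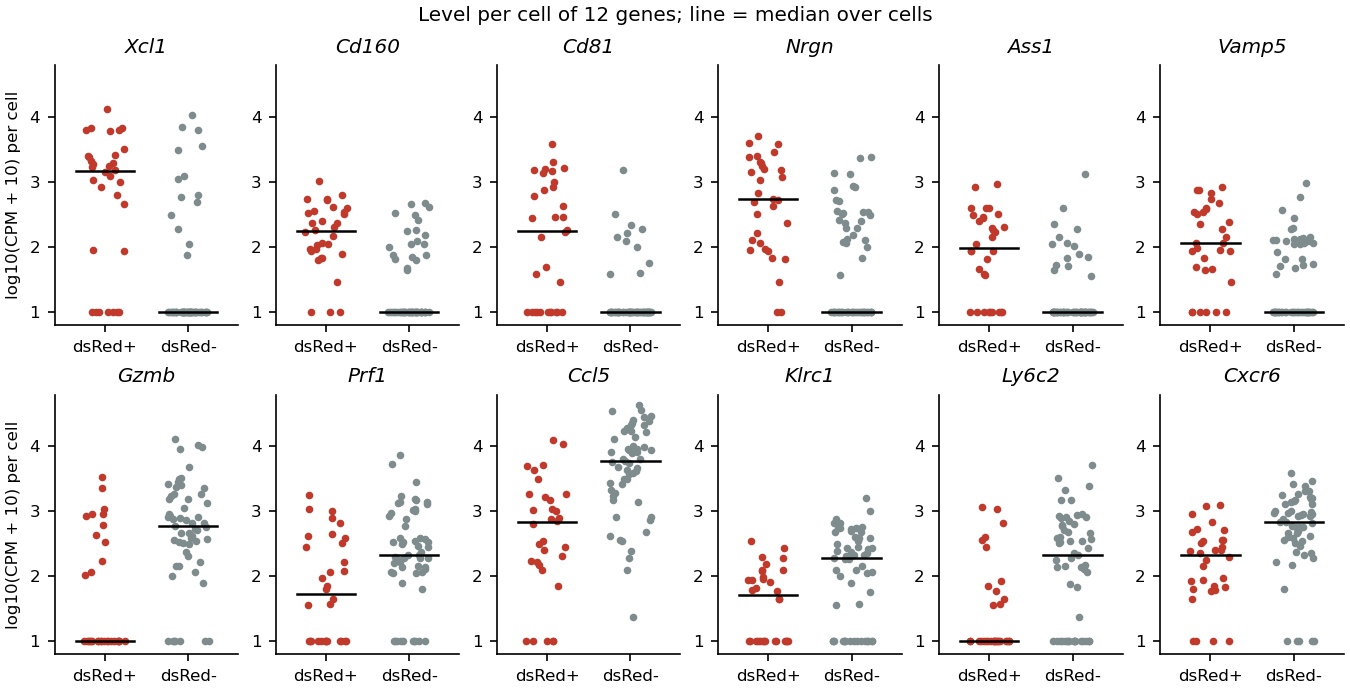
log10(CPM + 10) in each cell (vertical axis) for 6 genes higher (top) and 6 lower (bottom) in the 32 dsRed-positive cells than in the 57 dsRed-negative cells; each point is a cell and the line is the median. Cells without a UMI lie at 1, where most dsRed-negative cells fall for Xcl1 and most dsRed-positive cells for Gzmb, and every range overlaps that of the other set.

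Among surface receptors, Cd160 is an immunoglobulin-family receptor of activated and exhausted CD8 T cells that binds HVEM (chr3:96798763-96829351, minus strand). Of 6 compared inhibitory receptors it was the 1 past 2-fold higher, beside 1.22% of all compared genes. It ran from 0 to 1037 CPM with a median of 166 in positive cells and from 0 to 463 CPM with a median of 0 in negative cells. With 29 of 32 against 20 of 57 cells holding a UMI, 59.4% against 21.1% after thinning, and no cell giving more than 12% of its set's UMIs, it was spread over many cells. The ratio was 3.13 (2.24–4.44), at 181 against 57.7 CPM. Cd200, listed with them but too low to be compared, had 31 UMIs in 17 positive cells and 14 UMIs in 9 negative cells.

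Klrc1, which encodes the inhibitory receptor NKG2A, was the 1 of 6 compared inhibitory receptors past 2-fold lower, beside 1.58% of all compared genes. Its per-cell medians were 42.6 and 179 CPM with highest cells of 334 and 1576 CPM, and its ratio was 0.294 (0.207–0.408). Klrd1, which encodes its partner CD94, had a ratio of 0.419 (0.344–0.507) at 207 against 494 CPM. Klrk1, the activating receptor NKG2D, stood at 0.716 (0.604–0.846). Ctla4 stood at 0.757 (0.573–0.995). Of 10 NK receptor genes with a UMI, all had a lower level in dsRed-positive cells. All 5 that were compared lay below 1, and 2 of them were past 2-fold lower. Over all 2222 compared genes 944 lay below 1 and 1.58% past 2-fold lower. Klrc2 (17 against 69 UMIs) and Klre1 (10 against 46 UMIs) were too low to be compared.

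Cd81, a tetraspanin that organises receptors in the membrane (chr7:143052739-143067934, plus strand), ran from 0 to 3838 CPM with a median of 166 in positive cells and from 0 to 1521 CPM with a median of 0 in negative cells. It was found in 21 of 32 against 11 of 57 cells, and in 56.3% against 10.5% after thinning. The ratio was 4.64 (3.56–6.12), and 13.2 without the top cells, as 1 negative cell gave 70.4% of the UMIs of its set. Macrophages held 603 CPM of Cd81 and free RNA 451 CPM, above the 380.5 CPM of the positive cells. With the cells that carried over 3000 CPM of macrophage and dendritic cell markers left out, the log2 ratio was 4.21, against 2.21 with all cells. With the sets divided after thinning it was 0.95. Cd9, a related tetraspanin, had 54 against 30 UMIs in 15 and 7 cells and was too low to be compared.

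Among receptors for costimulation none was past 2-fold either way, and the median ratio of the 11 compared was 0.863. Cd2, the receptor for CD48, stood at 1.34 (1.13–1.59) and Icos at 0.602 (0.395–0.902). Cytokine receptors gave the same count of none, with a median of 0.948. Il18r1, a chain of the IL-18 receptor, stood at 1.58 (1.14–2.19), and Ifngr1, a chain of the interferon gamma receptor, at 0.619 (0.466–0.815).

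Among homing and adhesion genes, Cxcr6, the receptor for CXCL16 found on tissue-homing T cells, ran from 0 to 1228 CPM with a median of 205 in dsRed-positive cells and from 0 to 3946 CPM with a median of 679 in dsRed-negative cells. It was found in 28 of 32 and 52 of 57 cells, or 65.6% and 80.7% after thinning, and the ratio was 0.379 (0.320–0.448). Ccr2 stood at 0.396 (0.256–0.599) in 7 and 19 cells.

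Ly6c2, a surface antigen of memory and interferon-exposed T cells and of monocytes, ran from 0 to 1155 CPM with a median of 0 in positive cells and from 0 to 5190.0 CPM with a median of 203 in negative cells. It was found in 12 of 32 against 40 of 57 cells, or 18.8% against 61.4% after thinning, and the ratio was 0.279 (0.216–0.357). Its macrophage level was 48.1 CPM. Itgb1 and Cd44, an integrin chain and the hyaluronan receptor, stood higher at 1.63 (1.36–1.96) and 1.72 (1.16–2.57). Itga1, the collagen-binding integrin chain, had 0 UMIs in positive cells and 24 UMIs in 15 negative cells. Of 11 compared homing genes 1 was past 2-fold higher, which was Cd81, and 3 were lower, beside 1.22% and 1.58% of all compared genes.

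Among transcription factors, Id2, a regulator that holds effector differentiation in place by binding E proteins, was the 1 of 10 compared exhaustion factors past 2-fold. It ran from 38.7 to 2827 CPM with a median of 476 in positive cells and from 0 to 5283 CPM with a median of 1256 in negative cells. All but 1 of the 89 cells held it, and the ratio was 0.372 (0.330–0.419). Tox, the factor most tied to exhaustion, stood at 182 against 167 CPM, ratio 1.09 (0.851–1.39), an interval that holds 1. Nr4a2 and Batf, both induced through the T cell receptor, stood at 1.56 (1.25–1.95) and 1.41 (1.16–1.71), and Runx3, a factor of CD8 T cell effector genes, at 0.574 (0.427–0.765). The median over the list was 1.03, and its 1 gene of 10 past 2-fold lower stands beside 1.58% of all compared genes.

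Genes of progenitor and memory cells were too low for the comparison, with 1 of 16 past the filter (Txnip, ratio 0.577). Tcf7, which encodes TCF1, had 17 UMIs in 7 positive cells and 5 UMIs in 2 negative cells. Ccr7, the receptor for lymph node homing, had 44 UMIs in 14 cells against 14 UMIs in 4 cells, and Slamf6 had 34 against 21 UMIs. Il7r, a chain of the IL-7 receptor, had 3 against 12 UMIs. The list thus held members on both sides, 10 higher and 6 lower in level, and no share over all genes of such low counts was computed. Ccr7 is also a gene of migratory dendritic cells, and the part of their RNA in its counts was not tested.

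Nrgn, which encodes the calmodulin-binding protein neurogranin known from neurons (chr9:37544492-37552904, minus strand), ran from 0 to 5149 CPM with a median of 529.9 in dsRed-positive cells and from 0 to 2456 CPM with a median of 0 in dsRed-negative cells. It was found in 30 of 32 against 28 of 57 cells, and in 78.1% against 42.1% after thinning. The ratio was 2.89 (2.50–3.35), with 0.383 CPM in macrophages and 18.7 CPM in free RNA. Dapl1, a death-associated protein homologue, was found in 8 of 32 against 2 of 57 cells (21.9% against 3.51% after thinning), at 137 against 24.2 CPM, ratio 5.67 (3.51–9.58). Ass1, the arginine synthesis enzyme argininosuccinate synthase, was found in 23 against 15 cells (50% against 10.5% after thinning) at 132 against 48.5 CPM, ratio 2.72 (1.86–4.01).

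All of Xcl1, Cd160, Cd81 and Nrgn were found in the same cell in 17 of 32 dsRed-positive cells (53.1%, 34.7–70.9) and 2 of 57 dsRed-negative cells (3.51%, 0.428–12.1). None of them was found in 0 positive and 16 negative cells. These genes were chosen after their values were seen and for their difference, so the count describes how they were spread and supports nothing. Depth enters such a count. In the 25 positive and 23 negative cells with 10000 to 30000 UMIs, Xcl1 was found in 20 and 10 cells, Cd160 in 23 and 12, Cd81 in 16 and 6 and Nrgn in 24 and 15. In the same cells Gzmb was found in 8 and 20, Prf1 in 13 and 23 and Ly6c2 in 9 and 17.

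Of the T cell receptor genes, Trac, the constant gene of the alpha chain, was found in all 89 cells, from 99.7 to 1065 CPM with a median of 442 in dsRed-positive cells and from 152 to 3603 CPM with a median of 1142 in dsRed-negative cells. The ratio was 0.425 (0.373–0.484). The CD3 genes, which the gate used, stood at 0.788 (Cd3d), 0.771 (Cd3e) and 0.711 (Cd3g). The kinases Lck and Zap70 stood at 0.872 and 0.853 with intervals that reach 1.04 and 1.11, and the adapter Lat at 0.994. Of 22 compared receptor and signalling genes 1 was past 2-fold lower, Trac, and none higher, beside 1.58% and 1.22% of all compared genes.

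The beta chain has 2 constant genes, Trbc1 and Trbc2, of which a rearranged receptor uses 1, and their near-identical sequence can let counting split reads between them. Trbc2 stood at a ratio of 0.938 (0.868–1.01) and was found in all 89 cells. Trbc1 was found in 32 of 32 dsRed-positive cells (100%, 89.1–100) and 36 of 57 dsRed-negative cells (63.2%, 49.3–75.6), a count chosen after its values were seen. After thinning to 5000 UMIs the shares were 84.4% and 61.4%. The 21 negative cells without Trbc1 held a median of 32 Trbc2 UMIs. As a share of both genes, Trbc1 ran from 4.55% to 86.5% with a median of 31.7% in positive cells and from 0% to 96.7% with a median of 17.6% in negative cells. Among checkpoint-low CD8 T cells it was found in 7 of 7 dsRed-positive and 58 of 89 dsRed-negative cells.

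**Figure D4:**
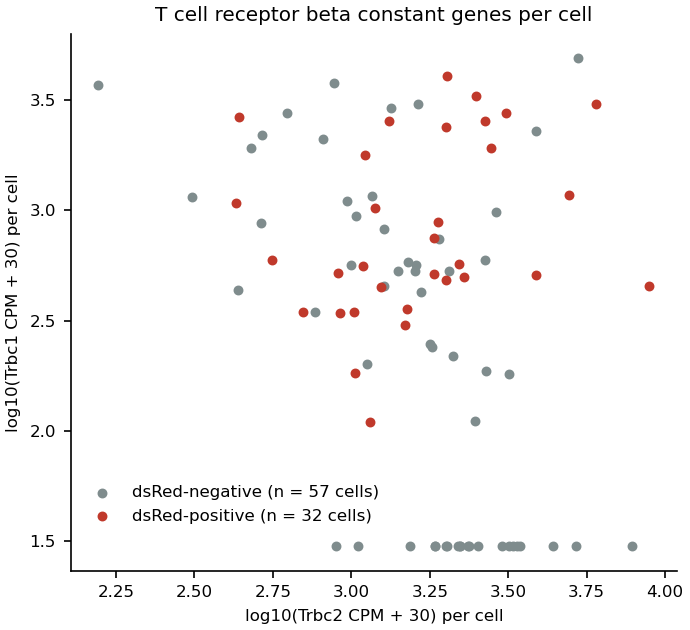
log10(Trbc1 CPM + 30) against log10(Trbc2 CPM + 30) in each of the 32 dsRed-positive and 57 dsRed-negative cells. The 21 cells on the lowest line held no Trbc1 UMI, and all of them are dsRed-negative; with every cell thinned to 5000 UMIs, Trbc1 was found in 84.4% of positive and 61.4% of negative cells.

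Reads of variable segments, which could show whether 1 receptor was shared, were nearly missing. All 128 Trav segments gave 16 UMIs in 7 positive cells and 11 UMIs in 11 negative cells, and all 35 Trbv segments gave 2 UMIs in 2 cells and 7 UMIs in 5 cells. Trbv12-1 had 2 UMIs in 2 positive cells and Trbv12-2 had 6 UMIs in 4 negative cells, the Vbeta5 family that includes the beta chain of the OT-I receptor against ovalbumin. Trav14-2 had 0 and 2 UMIs, and Trav16 had 7 UMIs in 2 positive cells and 0 in negative cells. At this depth no receptor could be assigned to either set.

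In cell division, all 24 listed G2 and M phase genes had a higher summed level in dsRed-positive cells, at any count of UMIs. Added up in each cell, they ran from 0 to 14419 CPM with a median of 1024 in positive cells. In negative cells they ran from 91.5 to 20709 CPM with a median of 802, so the ranges overlapped widely. The 14 compared all had a ratio above 1, beside 1278 of all 2222 compared genes. Of these 14, 5 were past 2-fold higher (Cenpf, Ccna2, Ccnb2, Birc5 and Ube2c) beside 1.22% of all compared genes, and the median ratio was 1.97. Cenpf, a kinetochore protein, stood at 119 against 33.5 CPM, ratio 3.54 (2.30–5.62), in 10 and 5 cells. Top2a, the topoisomerase of dividing cells, stood at 373 against 196 CPM, ratio 1.90 (1.56–2.32), in 22 and 23 cells, and Mki67 at 1.83 (1.38–2.44) in 16 and 17 cells.

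S phase genes stood closer, with a median of 1.30 and none of 12 past 2-fold, and their median log2 ratio of 0.38 turned to -0.27 when the sets were divided after thinning. A UMI of Mki67 or Top2a was held by 24 of 32 positive cells (75%, 56.6–88.5) and 30 of 57 negative cells (52.6%, 39.0–66.0). The positive cells with such a UMI had a median of 22182 gene UMIs and those without 12083. In the 19 positive and 46 negative cells of 5000 to 20000 UMIs only 2 genes of the G2 and M list could be compared, with a median log2 ratio of 0.019, against 0.98 over 14 genes in all cells.

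The leading genes were then read apart in cells with and without these proliferation transcripts, a split added after the data were seen. Among the 24 and 30 cells with Mki67 or Top2a, Xcl1 had a ratio of 3.79 (3.38–4.25), Cd160 of 4.28 (2.68–7.15), Nrgn of 2.82 (2.37–3.36) and Gzmb of 0.316 (0.279–0.357). Among the 8 and 27 cells without, the ratios were 3.18 (2.60–3.89), 2.88 (1.64–5.05) and 3.44 (2.59–4.58) for Xcl1, Cd160 and Nrgn. All 8 of these positive cells held Xcl1, Cd81 and Nrgn. Gzmb was found in 1 of the 8, as 1 UMI, against 505 UMIs in 21 of the 27 negative cells, ratio 0.0057 (0.00014–0.0319), so nearly all Gzmb of dsRed-positive cells lay in cells with proliferation transcripts.

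Of 26 listed genes of the type I interferon response 23 had a lower level in dsRed-positive cells and 3 a higher one, at any count of UMIs. Only 7 were high enough to be compared, and 6 of these lay below 1, beside 944 of all 2222 compared genes. Their median ratio was 0.689, with 2 past 2-fold lower, beside 1.58% of all compared genes. Isg15, a ubiquitin-like protein, had UMIs in 10 of 32 and 21 of 57 cells with highest cells of 301 and 2181 CPM, and its ratio was 0.219 (0.125–0.364). Isg20, an exonuclease, stood at 0.477 (0.307–0.725). Among members too low to be compared, Ifi209 had 13 UMIs in 9 positive cells and 75 UMIs in 38 negative cells, and Rtp4 had 8 UMIs in 6 cells and 53 UMIs in 21 cells. Macrophages and free RNA held more Isg15, at 180.4 and 207 CPM, than either set, at 26.0 and 119 CPM.

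Genes of the interferon gamma response were nearer to 1, with a median of 0.905 over 10 compared genes. Igtp, a GTPase, was past 2-fold lower at 0.397 (0.245–0.624) and Socs1, an inhibitor of cytokine signalling, stood at 1.54 (1.05–2.27). Class I genes H2-K1, H2-D1 and B2m stood at 0.728, 0.753 and 0.764, and H2-T22 at 0.463 (0.380–0.561), while the class II genes Cd74 and H2-Ab1 stood at 1.36 (1.23–1.5) and 1.28 (1.06–1.54). Of the Cd74 UMIs 56.2% and 65.9% came from 1 cell of each set, and its 1221 and 898 CPM lay below the 13165 CPM of macrophages and 9518 CPM of free RNA, whose part in the class II ratios was not tested.

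**Figure D5:**
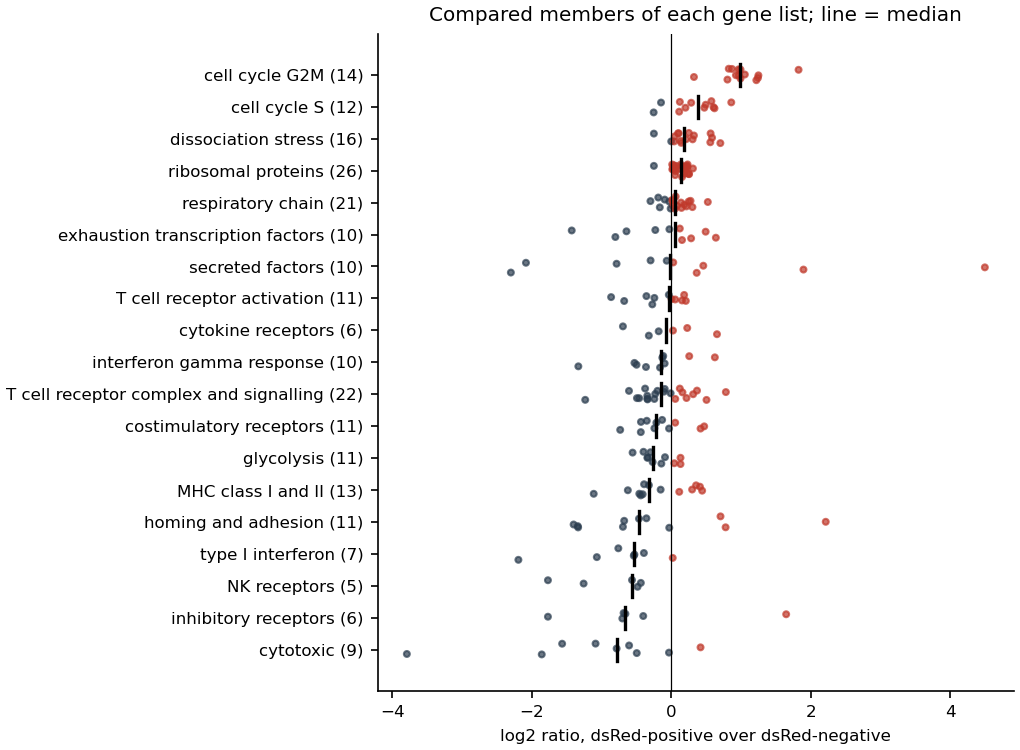
log2 ratio of dsRed-positive over dsRed-negative cells (horizontal axis) for the compared members of 19 gene lists, each a point, with the number compared in parentheses and the median as a vertical line. The G2 and M phase list has the highest median at 0.98 and the cytotoxic list the lowest at -0.78.

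Metabolic and housekeeping lists showed small differences. The median ratios were 0.831 for 11 glycolysis genes, 1.04 for 21 respiratory chain genes and 1.10 for 26 ribosomal protein genes, with none past 2-fold. Genes raised by tissue dissociation had a median of 1.13 over 16, and the genes of T cell receptor activation one of 0.976 over 11, also with none past 2-fold.

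RNA of myeloid cells was present in some cells of both sets. The 9 macrophage markers summed to 512 CPM in dsRed-positive cells (0 to 5183 CPM per cell, median 287) and 1034 CPM in dsRed-negative cells (0 to 12018, median 335), and the 7 dendritic cell markers to 1699.9 and 1288 CPM, with Xcr1 and Clec9a at 0. Over 3000 CPM of these markers other than Ccr7 was held by 4 of 32 and 3 of 57 cells. Lyz2 and Cxcl10 were past 2-fold lower, with 62.8% and 88.9% of the negative cells' UMIs from 1 cell. Without the cells over 3000 CPM the log2 ratios of Lyz2 and Cxcl10 turned to 0.089 and 1.81, while Xcl1 kept 1.96, Cd160 1.72, Gzmb -1.87 and Ccl5 -2.12.

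Spatial barcodes were the readout of the other library. With a barcode called at 10 or more UMIs and at least 2 times the next, ZC3 was called in 11 of 32 dsRed-positive cells (34.4%, 18.6–53.2) and 18 of 57 dsRed-negative cells (31.6%, 19.9–45.2). ZC2 was called in 4 and 5 cells (12.5%, 3.51–29.0, and 8.77%, 2.91–19.3) and ZC1 in none of either set, while 17 and 34 cells got no call. With at least 1.5 times the next barcode ZC3 was called in 53.1% and 47.4%, and with levels taken relative to free barcodes in 18.8% and 26.3%, so the order of the sets depended on the rule. No test between the sets was possible. Read without calls, ZC3 made up a median of 53.5% and 48.3% of a cell's spatial UMIs, ZC2 32.3% and 30.8% and ZC1 9.82% and 11.6%. The free barcodes held 58.0%, 26.4% and 15.6% of ZC3, ZC2 and ZC1, close to these shares. Among 96 checkpoint-low CD8 T cells, 20 were called ZC3, 10 ZC2 and 7 ZC1.

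The checkpoint-low CD8 T cells gave a further view of dsRed, with 7 positive and 89 negative cells that the limits above left out. These sets also differed in depth and checkpoint level. The positive cells had medians of 24286 gene UMIs and 412 CPM of the 4 checkpoint genes, and the negative cells 6553 and 47.1. Nrgn stood at 385 against 1.70 CPM there, ratio 227 (60.9–1902), from 86 against 2 UMIs. Dapl1 stood at 8.98 (5.47–15.0), Cd81 at 7.03 (4.15–12), Xcl1 at 2.45 (1.87–3.19) and Ass1 at 2.23 (1.51–3.24). Cd160 stood at 1.28 (0.674–2.27), an interval that holds 1. Ccl5 and Ly6c2 were lower at 0.101 (0.0825–0.122) and 0.117 (0.0739–0.177), as in checkpoint-high cells, and Trac stood at 0.560 (0.434–0.712). Gzmb and Cxcr6 stood on the other side of 1, at 1.41 (1.17–1.68) and 1.70 (1.29–2.23). These are few cells of the same library, their genes were read on dsRed in the same way, and they are no replicate.

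Under 18 other settings of depth, limits and counting, 28 of the 34 named genes past 2-fold kept their direction throughout. In each setting 11 stayed past 2-fold, among them Xcl1 and Dapl1, which were higher, and Gzmb, Ccl5, Ly6c2, Klrc1, Id2, Ccr2, Isg15 and AA467197, which were lower. The settings were not independent, and some of the 34 genes were named for the size of their ratio in these same cells. The filter of 30 UMIs leaves a gene's ratio as it was, division by the median shifts all ratios alike, and several settings share most cells. AA467197, the microRNA host gene also called Nmes1, stood at 0.197 in 7 against 25 cells. Ccr2 rests on few cells, with 80.6% of its positive UMIs from 1 cell. Dapl1 also does, in 8 positive and 2 negative cells, with 85.7% of its negative UMIs from 1 cell. The log2 ratio of Xcl1 ran from 1.29 to 2.35 over these settings, that of Ccl5 from -2.52 to -1.35 and that of Cd160 from 0.92 to 1.96. The lowest for Nrgn was 0.66, with the sets divided after thinning, and the weakest for Prf1 was -0.82, in cells of 5000 to 20000 UMIs.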

How the data were processed

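The deposited matrix holds raw UMI counts of the gene expression and spatial barcode libraries of the same cells, per the file headers, and its values were checked to be whole numbers. Reads were processed by the authors with Cell Ranger 4.0.0 on mm10, per the submitters' processing notes; other settings have no statement in those notes. The matrix held 117528298 gene UMIs, and 4592 barcodes had at least 500. The limits of 1000 gene UMIs, 500 genes and 10% mitochondrial UMIs left 4236 cells. No per-sample value column was left unused.

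From these counts, CPM of UMIs summed over each set were computed with exact Poisson intervals, shares with exact Clopper-Pearson intervals and ratios by the exact conditional binomial method, at a level of 95%. There is 1 library and so no replicate, and no p-value was computed. Genes entered the comparison with 100 or more UMIs in the sets together, if 10 or more of these would fall in the set with fewer UMIs were the rates the same. Where a log2 ratio needed it, 0 UMIs of a set were put at 3 counts. Free RNA is the sum of 68497 barcodes with 10 to 100 UMIs. Named genes are the 12 highest and 12 lowest ratios with a UMI in 10% of the cells of the higher set, the 2 highest and 2 lowest compared members of each of 20 state lists, listed T cell receptor segments and the genes of the limits. Other genes of the lists are named as members with their counts, and Vamp5, Nkg7 and genes singled out in the text were taken after their values were seen. The members and lists were chosen with earlier results of these data known. No doublet caller was run; the C1q limit and alternatives without deep cells or cells with myeloid RNA stand in for one. X-inactivation and Y-linked genes were left out. A few listed genes count in their lists but are not reported here by name. Positions are from GENCODE M21 (GRCm38) and promoters from RefSeq (GRCm38.p6).

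Alternatives changed the dsRed, depth, checkpoint, C1q and mitochondrial limits, the weighting of cells, free RNA, the filters and the spatial barcode rule. The ratio and interval steps were first tested on simulated counts, drawn from 1 shared profile without a spread between cells. The gates, thinning, lists, spatial barcode calls and motif search were not simulated. Versions were pandas 2.3.3, scipy 1.17.1, numpy 2.4.6, matplotlib 3.10.9 and Python 3.11.15.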

Additional observations from a re-analysis of the deposited data

Results flagged for a closer look

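Among 101 named genes, 8 had dsRed-positive over dsRed-negative ratios on opposite sides of 1 in checkpoint-high and checkpoint-low CD8 T cells. Their counting intervals lay on 1 side of 1 in each. No such share over all compared genes was computed. The gate genes Lag3, Pdcd1, Havcr2 and Tnfrsf9 met the same condition, but they define the checkpoint-high and checkpoint-low cells and are not counted. The differences between these ratios were not tested, and the checkpoint-low ratios rest on 7 dsRed-positive cells. These cells were deeper than the checkpoint-low dsRed-negative cells, at medians of 24286 and 6553 gene UMIs. They also lay closer to the checkpoint limit, at medians of 412 and 47.1 CPM.

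Gzmb, the granzyme B gene, stood at 0.276 in checkpoint-high and 1.41 in checkpoint-low cells, and Cxcr6, the receptor for CXCL16, at 0.379 and 1.70. Ctla4 stood at 0.757 and 2.60, Il2rb, a chain of the IL-2 receptor, at 0.80 and 1.53, and the glycolysis gene Tpi1 at 0.759 and 1.37. On the other side, the histone gene Hist1h1b stood at 3.02 and 0.555 and Cd44, the hyaluronan receptor, at 1.72 and 0.512. Spp1, the osteopontin gene of myeloid cells, stood at 22.6 and 0.106, with 80.6% of its UMIs in checkpoint-high dsRed-positive cells from 1 cell. In checkpoint-low dsRed-positive cells Spp1 had 2 UMIs, Cd44 10 and Hist1h1b 14. The checkpoint-low intervals of Cd44 and Hist1h1b reached 0.980 and 0.964.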

How the results depend on the processing

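No paired analysis was possible because all cells came from 1 gene expression library. Depth limits the division by dsRed, since 21 dsRed-negative cells were expected to hold fewer than 3 dsRed UMIs even at the level of the positive cells. Of 19 list medians, 9 took the other sign in some setting, 2 of them (S phase and type I interferon) from a log2 ratio past 0.3. The split after thinning placed cells with dsRed UMIs in the negative set, giving 23 against 66 cells, and kept all UMIs for the ratios. It is therefore no correction of the ratios for depth. The causes of the moves below were not tested, beyond the fewer cells and genes that each setting leaves.

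The dsRed share of 36.0% was 25.8% with the split after thinning to 5000 UMIs, 51.7% in cells of at least 10000 UMIs and 22.9% in the 8 and 27 cells without Mki67 or Top2a, where 12.5% of dsRed-positive cells held a V segment against 28.1% of all. The 27 genes past 2-fold higher became 11 after thinning, 12 in cells of 5000 to 20000 UMIs, 9 without Mki67 or Top2a, 54 with the mean over cells, 166 with 30 UMIs per gene and 137 at 1.5-fold. The 35 lower became 19 at 10000 UMIs, 20 with C1q under 250 CPM, 23 without Mki67 or Top2a, 171 with 30 UMIs per gene and 122 at 1.5-fold. At 1.5 times the next barcode ZC3 was called in 53.1% of dsRed-positive and 47.4% of dsRed-negative cells (34.4% and 31.6%). Relative to free barcodes ZC3 was called in 18.8% and 26.3% and ZC2 in 25% and 22.8% (12.5% and 8.77%).

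All further values are log2 ratios. The split after thinning gave -0.59 for the cytotoxic list (-0.78 with the limits of the report), -0.27 for S phase (0.38), -1.13 for NK receptors (-0.56), -1.01 for Spp1 and -2.21 for Cxcl9. Cells of at least 10000 UMIs gave -0.53 for the cytotoxic and 0.64 for the G2 and M list (0.98). Cells of 5000 to 20000 UMIs gave 0.27 for T cell receptor activation (-0.03), 0.019 for G2 and M from 2 compared genes, -1.29 for NK receptors, 0.26 for ribosomal proteins (0.14), -1.45 for Cxcl9, 0.31 for Lyz2 and 2.32 for Cxcl10. Without cells over 40000 UMIs secreted factors stood at -0.32 (-0.02), without the top cell of each gene at -0.20 and with 30 UMIs per gene at 0.13. A checkpoint limit of 250 CPM gave 0.61 for G2 and M. One of 1000 CPM gave 0.62 for it, -1.43 for cytotoxic, 0.17 for T cell receptor activation, 0.55 for dissociation stress (0.18), -1.70 for NK receptors, 0.42 for Lyz2 and 0.31 for Cxcl10. C1q under 250 CPM gave -0.68 for cytotoxic.

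Cells without Mki67 or Top2a, a setting that itself selects on G2 and M genes, gave 0.83 for exhaustion factors (0.05), -1.72 for cytotoxic, -0.94 for secreted factors, -0.65 for cytokine receptors (-0.08), -0.059 for S phase, 0.27 for type I interferon (-0.54) and 0.34 for G2 and M, each of 1 compared gene, -0.19 for dissociation stress and 0.27 for ribosomal proteins. There Hist1h2ap stood at -0.059, Lyz2 at 1.53, Cxcl10 at 3.77 and Ccl1 at 0.14. With 30 UMIs per gene type I interferon stood at -1.42 and NK receptors at -1.21, and with free RNA subtracted NK receptors stood at -1.26. The setting without cells over 3000 CPM of myeloid markers was chosen after seeing the data and gave -1.61 for NK receptors, -0.70 for Cxcl9, 0.089 for Lyz2 and 1.81 for Cxcl10.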
